A study of Homo sapiens with 12 samples.

Results

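The expression of 10 genes known as transcriptional output of ERK signalling was examined in HT29 cells after 24 h with a water extract of Aconitum carmichaeli Debeaux (ACD), a medicinal herb. The genes were DUSP4, DUSP5, DUSP6, SPRY2, SPRY4, ETV4, ETV5, FOSL1, EGR1 and PHLDA1. They and the lists of related genes below were chosen by name, but with earlier results of these data known. All 10 symbols were found among the 60675 gene IDs of the count table. All 10 were also among the 15374 genes that passed the filter on low counts, with 73 to 5169 counts per gene and library.

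HT29 is a line of human colorectal adenocarcinoma cells that is known to carry an activating mutation of BRAF. The values are counts per gene and hold no base calls, so that mutation was not checked here. Total RNA was made into 12 mRNA libraries and sequenced, with 3 libraries per group. The vehicle group received PBS with 2% DMSO, and the low, medium and high doses of ACD were 20, 100 and 500 µg/mL. By the study's methods, the extract was dissolved in the same DMSO-containing PBS as the vehicle, and a small volume of either was added to the growth medium. A note on treatment that was deposited with the libraries describes another herb, Poria cocos, but ACD is the herb in the titles and treatment fields, from which the groups were taken. All libraries come from 1 cell line at 1 time. The sources do not say that the replicates were separate cultures, so p-values measure the spread between these libraries, which may be technical.

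In the ERK cascade, RAS proteins at the membrane switch on RAF kinases, RAF switches on MEK, and MEK switches on the kinases ERK1 and ERK2. Active ERK enters the nucleus and raises the transcription of early response genes such as EGR1 and of AP-1 and ETS factors such as FOSL1, ETV4 and ETV5. It also raises the transcription of its own brakes. DUSP phosphatases take the phosphate groups off ERK, and Sprouty proteins act between growth factor receptors and RAF. In colorectal cells with mutant BRAF, RAF is active without a growth factor, and the transcripts of these genes are widely used as a readout of ERK activity. Here only transcripts were measured, and the phosphorylation of ERK was not.

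The libraries held 15941255 to 33866644 expected counts, and the 10 colon epithelial markers summed to between 11364 and 13591 CPM (counts scaled to library sizes normalised by TMM) in all of them. KRT8 and KRT18 made up most of that sum, with vehicle means of 6438 and 3493 CPM. CDX1 and CDX2, of the same 10 markers, had vehicle means of only 1.23 and 5.02 CPM. Of 12 markers of other cell types, 7 were under 1 CPM in every library. The 12 still summed to between 1275 and 1900 CPM in all libraries, and LYZ, with a vehicle mean of 1712 CPM, made up most of that. CD68, named after its values were seen, rose at the high dose (log2 fold change 0.57, adjusted p = 0.0151 by edgeR). The CD68 call was lost without vehicle replicate 1 (0.062), vehicle replicate 2 (0.0611) or high-dose replicate 3 (0.07), and with edgeR on the 2 groups alone (0.0838). High-dose replicate 2 stood apart, because its log2 CPM differed from the rest of its group with an SD of 0.502 over 10626 genes, against 0.102 to 0.293 in the other 11 libraries. It was also the library with the lowest depth. Mitochondrial ribosomal RNA took 11.3% to 12.5% of the counts at the high dose, 1.96% to 2.18% at the medium dose and 0.982% to 1.22% in the low-dose and vehicle libraries. Its part in the results was not tested, but library sizes without mitochondrially encoded genes changed no call among the 10 genes.

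Promoter sequences from RefSeq (GRCh38.p14) were used for DUSP6, SPRY2, SPRY4, EGR1 and PHLDA1, and DUSP4 was left out of the search. For DUSP5, FOSL1, ETV4 and ETV5 the set of promoter sequences used held none, so they were not searched. The 4 printed here belong to a gene that rose (PHLDA1), to a gene whose call changed between analyses (EGR1), to the gene with the lowest fold change (SPRY2) and to a common readout of ERK (DUSP6). Each is the 250 bases before a transcription start, read 5′ to 3′ on the gene's strand. Capitals mark matches, on either strand, to the CArG box bound by SRF, to the ETS core CCGGAA or to the cAMP response half-site TGACGT.
EGR1, chr5:138465229-138465478, plus strand: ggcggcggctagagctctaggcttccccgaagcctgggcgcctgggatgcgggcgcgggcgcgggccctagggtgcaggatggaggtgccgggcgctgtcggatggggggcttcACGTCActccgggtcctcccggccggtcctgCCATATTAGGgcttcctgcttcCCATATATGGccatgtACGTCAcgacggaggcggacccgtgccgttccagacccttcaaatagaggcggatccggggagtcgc
PHLDA1, chr12:76031777-76032026, minus strand: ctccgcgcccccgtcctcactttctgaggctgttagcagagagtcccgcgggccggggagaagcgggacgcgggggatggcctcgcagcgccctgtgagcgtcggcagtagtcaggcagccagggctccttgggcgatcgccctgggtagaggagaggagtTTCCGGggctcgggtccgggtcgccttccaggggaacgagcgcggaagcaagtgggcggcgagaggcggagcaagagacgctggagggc
SPRY2, chr13:80341127-80341376, minus strand: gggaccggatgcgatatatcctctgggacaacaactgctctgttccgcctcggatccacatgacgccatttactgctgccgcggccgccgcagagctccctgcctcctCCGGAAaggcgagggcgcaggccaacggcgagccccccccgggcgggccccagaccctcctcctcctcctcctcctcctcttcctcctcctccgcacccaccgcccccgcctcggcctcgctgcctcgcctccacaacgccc
DUSP6, chr12:89352502-89352751, minus strand: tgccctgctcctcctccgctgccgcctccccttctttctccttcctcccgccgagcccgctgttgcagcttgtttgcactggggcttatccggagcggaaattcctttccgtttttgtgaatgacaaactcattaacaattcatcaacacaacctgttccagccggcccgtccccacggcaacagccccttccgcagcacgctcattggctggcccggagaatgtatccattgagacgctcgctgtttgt

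The EGR1 promoter held 2 CArG boxes, with their first bases at −105 and −83 from the start, and 2 cAMP response half-sites at −136 and −67. CArG boxes were in 1.16% of the 35116 RefSeq promoter windows of this length, and the half-site was in 7.1%. The PHLDA1 window held 1 ETS core at −89, and the first of 3 SPRY2 starts held 1 at −142, a motif found in 14.5% of the windows. The AP-1 motif TGANTCA, the NF-kB site and the xenobiotic response element TNGCGTG were searched as well, and they had no match in the windows of these genes. They were in 6.57%, 5.21% and 4.52% of all windows. No searched motif was found in the DUSP6 and SPRY4 windows. A match of letters is a description and not a binding site shown in these cells.

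Among the phosphatases, DUSP5 rose with the dose, and DUSP4 and DUSP6 did not pass the edgeR test of all 12 libraries at any dose. DUSP5 encodes a nuclear phosphatase that acts on ERK (ENSG00000138166, chr10:110497907-110511533, plus strand, GENCODE 44 on GRCh38). Its level was 4.02, 4.55 and 3.82 CPM in the vehicle libraries, and 5.05, 4.69 and 4.83 CPM at the low dose. With 100 µg/mL it was 6.57, 6.72 and 6.35 CPM, and with 500 µg/mL 7.79, 8.35 and 8.33 CPM. The 3 libraries of each group lay above all libraries of the next lower dose, so the 4 groups did not overlap. The mean was 4.13 ± 0.374 CPM (SD, n = 3) in the vehicle group and 8.16 ± 0.319 CPM at the high dose.

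By the quasi-likelihood test of edgeR, DUSP5 rose 1.96-fold at the high dose (95% interval 1.70 to 2.27, log2 fold change 0.97 ± 0.10 SE, adjusted p = 8.8e-05) and 1.58-fold at the medium dose (log2 fold change 0.66 ± 0.10, adjusted p = 0.00546). At the low dose the log2 fold change was 0.23 ± 0.11 and did not pass the test (edgeR adjusted p = 0.629). The high dose also exceeded the low dose, by 0.75 on the log2 scale (edgeR adjusted p = 0.000737). Between the high and medium doses the difference was 0.32 (95% interval 0.12 to 0.52, edgeR adjusted p = 0.202). Along the rank of the dose, DUSP5 rose by 0.34 ± 0.03 per step (edgeR adjusted p = 2.71e-05). The call at the high dose, with an adjusted p under 0.05 and a change of over 1.5-fold, was made in all 20 alternative analyses, and so was the call at the medium dose. High-dose replicate 2 did not stand apart in DUSP5. The pseudogenes DUSP5P1 and DUSP5P2 had at most 6 counts in any library.

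DUSP6 encodes the cytoplasmic ERK phosphatase that is often taken as the most direct transcript readout of ERK (ENSG00000139318, chr12:89347235-89352501, minus strand). It was at 58.1, 61.5 and 61.8 CPM in the vehicle libraries, at 69.7, 71.1 and 77.0 CPM with 20 µg/mL, at 64.4, 61.2 and 61.9 CPM with 100 µg/mL and at 64.1, 67.2 and 65.1 CPM with 500 µg/mL. The low-dose libraries were thus the highest of all 12, and those of the medium dose overlapped the vehicle. The high-dose libraries lay above the vehicle by a narrow margin. The log2 fold change was 0.26 ± 0.06 at the low dose (edgeR adjusted p = 0.185), 0.05 with the medium dose (0.826) and 0.11 ± 0.06 with the high dose, with a 95% interval of −0.03 to 0.25 (0.36). Without high-dose replicate 2, the low-dose value stayed at 0.26 and passed the test (edgeR adjusted p = 0.017). It also passed by DESeq2 on all libraries (adjusted p = 0.00626), and in no more than these 2 of 20 alternatives. An uncharacterised antisense gene that overlaps DUSP6 had 8 to 29 counts, against 949 to 2117 for DUSP6.

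The genes whose log2 CPM ran most closely with DUSP6 over the 12 libraries were PREP, ZNF654, VPS41, RIPK3 and MLH3, with Pearson r of 0.854, 0.853, 0.847, 0.838 and 0.830 among 10616 genes with a mean of at least 5 CPM. Like DUSP6, each had its highest group mean at the low dose. These values are a description over libraries that share dose and depth.

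DUSP4 encodes a nuclear, inducible phosphatase of ERK and related kinases (ENSG00000120875, chromosome 8). It was at 29.4, 28.2 and 29.8 CPM in the vehicle libraries and at 28.6, 30.9 and 31.4 CPM at the low dose. With 100 µg/mL it was at 31.2, 32.4 and 32.7 CPM, above all vehicle libraries, and with 500 µg/mL at 30.6, 27.5 and 32.5 CPM, where the groups overlapped. The largest log2 fold change against vehicle was 0.14 ± 0.08 at the medium dose (edgeR adjusted p = 0.516). At the high dose it was 0.06, and its 95% interval of −0.11 to 0.22 left out a change of 1.5-fold in either direction.

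**Figure D1:**
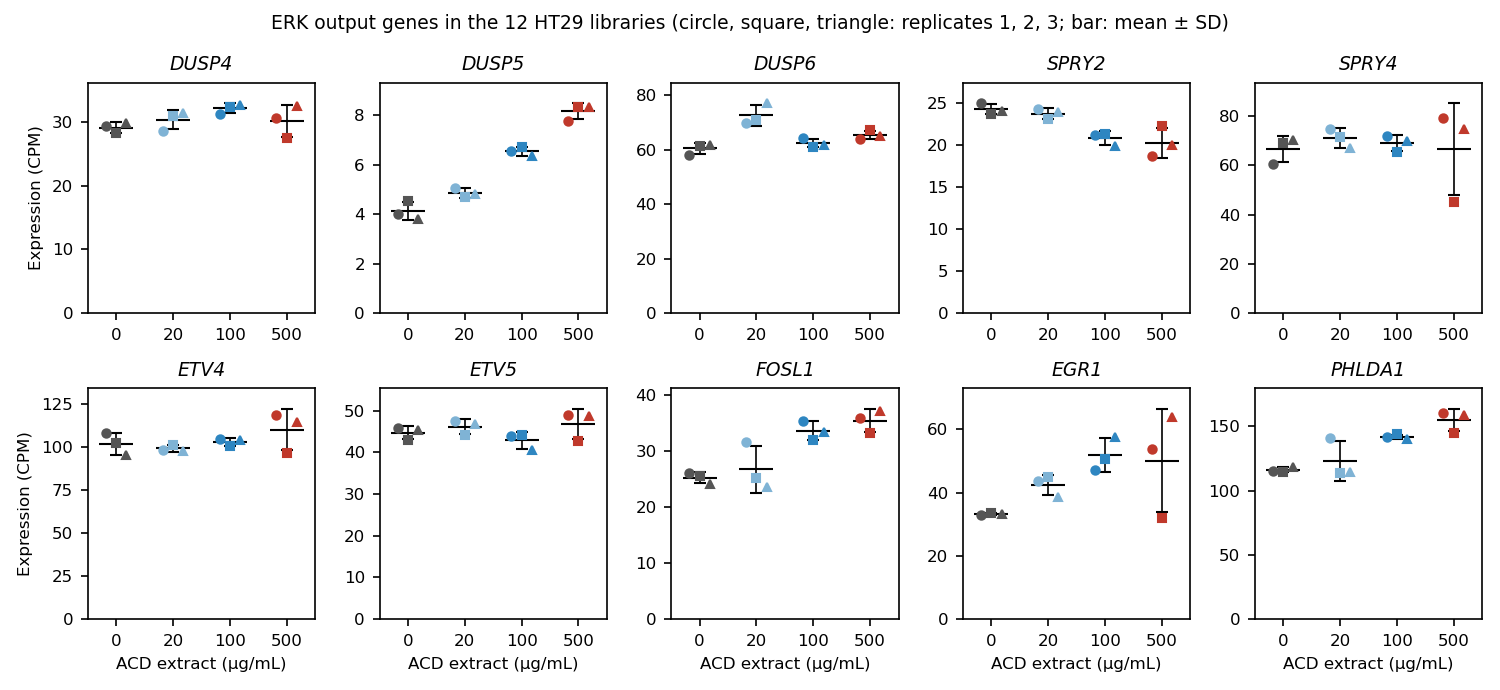
Expression of the 10 ERK output genes in CPM (vertical axes, from 0) against the concentration of ACD in µg/mL, where 0 is the vehicle. Each symbol is a library, and bars give the mean ± SD of 3 libraries. DUSP5 climbs from 4.13 to 8.16 CPM without overlap between groups, while in EGR1 and SPRY4 the square of high-dose replicate 2 lies far under the other symbols of its group.

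Neither Sprouty gene passed the edgeR test of all 12 libraries at any single dose, although SPRY2 was lower at the 2 higher doses in every library. SPRY2 (ENSG00000136158, chr13:80335976-80341126, minus strand) was at 25.0, 23.8 and 24.1 CPM in the vehicle libraries and at 24.3, 23.1 and 24.0 CPM at the low dose. The medium-dose libraries were at 21.3, 21.4 and 19.9 CPM, and the high-dose libraries at 18.8, 22.3 and 20.0 CPM. All libraries of the medium and the high dose lay under all libraries of the vehicle, and it was the only one of the 10 genes for which this held. The log2 fold change was −0.22 ± 0.08 with the medium dose (edgeR adjusted p = 0.27) and −0.26 ± 0.08 with the high dose (0.0699), neither of which passed the test. DESeq2 on all libraries called SPRY2 at the high dose (−0.26, adjusted p = 0.0264). The slope along the dose rank, −0.10 ± 0.02 per step, passed it (edgeR adjusted p = 0.0305), but in only 6 of 18 alternatives. When 1 library was left out, it failed in 10 of the 12 cases, with an adjusted p of 0.0571 to 0.102. When high-dose replicate 2 was left out, SPRY2 fell by 0.32 on the log2 scale at the high dose (edgeR adjusted p = 0.00434). At the medium dose it then fell by 0.22 (0.0456). Of 20 alternatives, 2 called SPRY2 at the high dose and 1 at the medium dose.

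SPRY4 (ENSG00000187678, chr5:142310427-142326455, minus strand) was at 60.5, 69.1 and 70.2 CPM in the vehicle libraries, at 74.9, 71.5 and 67.0 CPM with 20 µg/mL and at 71.9, 65.3 and 69.8 CPM with 100 µg/mL. With 500 µg/mL it was at 79.4, 45.2 and 74.8 CPM. Replicate 2 was the lowest of all 12 libraries. The other 2 high-dose libraries were above all vehicle libraries, and the group mean was 66.5 ± 18.6 CPM (SD, n = 3). The log2 fold change at the high dose was 0.00, with a 95% interval of −0.35 to 0.35 (edgeR adjusted p = 0.998). Without replicate 2 it was 0.21 (edgeR adjusted p = 0.0503). The antisense gene SPRY4-AS1 had 3 to 19 counts.

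Neither ETS factor passed the edgeR test of all 12 libraries at any dose. ETV4 encodes a member of the PEA3 group of ETS factors (ENSG00000175832, chr17:43527844-43579620, minus strand). It was at 108.3, 102.2 and 95.4 CPM in the vehicle libraries, at 98.1, 101.4 and 97.9 CPM with 20 µg/mL, at 104.4, 100.5 and 104.2 CPM with 100 µg/mL and at 118.8, 96.6 and 114.7 CPM with 500 µg/mL. High-dose replicates 1 and 3 were the 2 highest libraries, and replicate 2 lay within the range of the vehicle. The log2 fold change at the high dose was 0.11 ± 0.08 (95% interval −0.06 to 0.29, edgeR adjusted p = 0.498). Without replicate 2 it was 0.20 and passed the test (edgeR adjusted p = 0.0262), the only 1 of 20 alternatives that did. The gene overlaps DHX8 on the opposite strand, which had 561 to 1834 counts. The library kit was directional, but the strand setting of the counting is not given in the sources used here, so reads of the overlap may be shared between both genes.

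ETV5, of the same PEA3 group (ENSG00000244405, chr3:186046314-186110318, minus strand), was at 45.8, 42.9 and 45.3 CPM in the vehicle libraries, 47.6, 44.2 and 46.9 CPM with 20 µg/mL, 43.9, 44.3 and 40.6 CPM with 100 µg/mL and 49.0, 42.7 and 48.7 CPM with 500 µg/mL. Every dose overlapped the vehicle. At the high dose the log2 fold change was 0.07, with a 95% interval of −0.09 to 0.23 (edgeR adjusted p = 0.663). ETV5 passed the test in 0 of 20 alternatives at each dose.

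FOSL1 and PHLDA1 rose at the high dose, and EGR1 had a higher mean at every dose, which passed the test in some analyses but not in the edgeR fit of all 12 libraries. FOSL1 encodes the AP-1 subunit FRA-1, which ERK also stabilises as a protein (ENSG00000175592, chr11:65892049-65900573, minus strand). It was at 26.0, 25.6 and 24.1 CPM in the vehicle libraries and at 31.5, 25.1 and 23.5 CPM at the low dose. With 100 µg/mL it was at 35.4, 32.0 and 33.4 CPM, and with 500 µg/mL at 35.9, 33.2 and 37.1 CPM. The medium-dose and high-dose libraries lay above all vehicle libraries, whereas the low dose overlapped the vehicle, with replicate 1 above it. FOSL1 rose 1.41-fold at the high dose (log2 fold change 0.49 ± 0.10, edgeR adjusted p = 0.0145), under the 1.5-fold limit set for a differentially expressed gene (DEG). For the medium dose the log2 fold change was 0.41 ± 0.10 and did not pass the test (edgeR adjusted p = 0.0922), although it did without high-dose replicate 2 (0.00856) or without low-dose replicate 1 (0.0317). It also passed by DESeq2 on all libraries (adjusted p = 0.0137), and by DESeq2 (0.000299) and edgeR (0.0053) on the 2 groups alone. These were the only 5 of 20 alternatives in which FOSL1 passed at the medium dose.

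The slope of FOSL1 along the dose rank was 0.18 ± 0.03 per step (edgeR adjusted p = 0.00501), and it passed in all 18 alternatives. The call at the high dose was less stable. It was made in 16 of 20 alternatives, and it was lost without vehicle replicate 2 (edgeR adjusted p = 0.0538), vehicle replicate 3 (0.0595) or high-dose replicate 3 (0.0596), and when edgeR was run on the 2 groups alone (0.0712). The pseudogene FOSL1P1 had at most 7 counts.

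PHLDA1 encodes a protein with a pleckstrin homology-like domain that is induced by growth factors (ENSG00000139289, chr12:76025447-76031776, minus strand). It was at 115.4, 114.7 and 118.5 CPM in the vehicle libraries and at 140.8, 113.8 and 114.5 CPM at the low dose. The medium-dose libraries were at 141.6, 143.6 and 139.8 CPM, and the high-dose libraries at 160.2, 144.9 and 158.9 CPM. The 3 high-dose libraries lay above all libraries of the other groups, and low-dose replicate 1 reached the level of the medium dose. PHLDA1 rose 1.33-fold at the high dose (log2 fold change 0.41 ± 0.08, edgeR adjusted p = 0.0129) and by 0.14 ± 0.03 per step of the dose rank (0.0038). The call at the high dose was lost without vehicle replicate 2 (edgeR adjusted p = 0.0579) and when edgeR was run on the 2 groups alone (0.0988). For the medium dose the log2 fold change was 0.29 ± 0.08 (edgeR adjusted p = 0.177), and it passed without high-dose replicate 2 (0.0148). It also passed by DESeq2 on all libraries (adjusted p = 0.0488), and by DESeq2 (0.000275) and edgeR (0.0082) on the 2 groups alone. These were the only 4 of 20 alternatives in which PHLDA1 passed at the medium dose.

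In both FOSL1 and PHLDA1, low-dose replicate 1 was the highest of the low-dose libraries by a wide margin. Without it, the high dose exceeded the low dose by 0.55 on the log2 scale in FOSL1 (edgeR adjusted p = 0.00721) and by 0.45 in PHLDA1 (0.00862). With it, the differences were 0.41 (0.0555) and 0.33 (0.0588). They also passed when high-dose replicate 2 was left out, at 0.45 (0.00631) and 0.37 (0.00331). DESeq2 on all libraries called both as well (adjusted p = 0.00846 and 0.00599). In each gene these were the only 3 of 20 alternatives that passed.

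EGR1 encodes a zinc finger factor of the immediate early response (ENSG00000120738, chr5:138465479-138469303, plus strand), and its promoter is the one printed above with 2 CArG boxes. It was at 32.9, 33.6 and 33.3 CPM in the vehicle libraries, with an SD of 0.365 CPM. With 20 µg/mL it was at 43.6, 44.8 and 38.7 CPM, with 100 µg/mL at 47.1, 50.6 and 57.6 CPM and with 500 µg/mL at 53.9, 32.1 and 63.9 CPM. All low-dose and medium-dose libraries were above the vehicle, and the low dose did not overlap the medium dose. At the high dose, replicates 1 and 3 were above the vehicle, but replicate 2 was under every vehicle library and 0.87 lower, on the log2 scale, than the mean of the other 2.

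In the edgeR fit of all 12 libraries, no EGR1 comparison passed the test. The log2 fold change was 0.35 ± 0.19 at the low dose (edgeR adjusted p = 0.686), 0.64 ± 0.19 with the medium dose (0.172) and 0.60 ± 0.19 with the high dose (0.087), and the slope was 0.21 ± 0.06 per dose rank (0.0603). Without high-dose replicate 2, EGR1 rose at all doses, by 0.35 at the low dose (edgeR adjusted p = 0.0368), 0.64 with the medium dose (0.000148) and 0.83 with the high dose (6.53e-06). The low-dose and medium-dose fold changes were the same as with all 12 libraries. In each fit the spread of a gene is estimated from all groups together. The call also depended on the tool and on the libraries fitted. With all libraries kept, DESeq2 called EGR1 at the high dose (log2 fold change 0.59, adjusted p = 0.0356) and along the dose rank (0.0156). On the 2 groups alone, EGR1 passed for the medium dose by DESeq2 (adjusted p = 4.25e-10) and by edgeR (0.000605), and for the low dose by DESeq2 (0.0152).

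**Figure D2:**
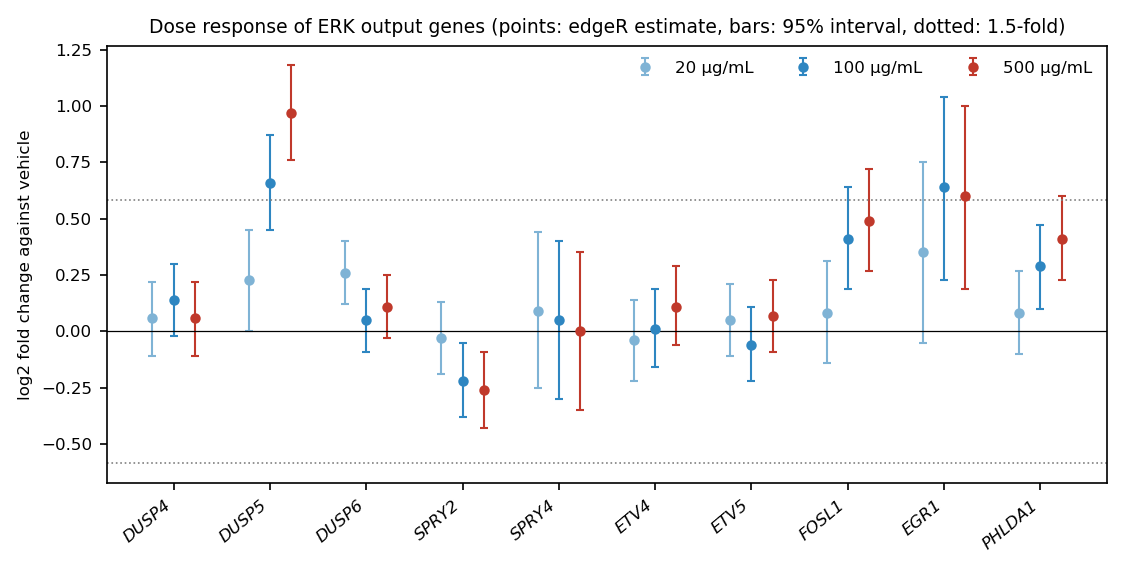
Log2 fold change of each of the 10 genes against vehicle (vertical axis) at 20, 100 and 500 µg/mL. Points are edgeR estimates, bars are 95% intervals and dotted lines mark 1.5-fold. DUSP5 reaches 0.97 at 500 µg/mL, the bars of EGR1 are the widest, followed by those of SPRY4, and the estimates of DUSP4, ETV4 and ETV5 lie near 0.

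Counted over the 10 genes, the high dose gave 1 DEG (adjusted p under 0.05 and a change of over 1.5-fold), DUSP5, against 2.93% of all genes tested. With no minimum fold change, 3 of the 10 rose at the high dose (DUSP5, FOSL1 and PHLDA1) and 0 fell, whereas 2.82% of all genes rose and 2.95% fell. The libraries of the high dose lay entirely above the vehicle in 4 of the 10 genes and entirely below it in 1, against 10.5% and 11.5% of all genes. The median log2 fold change was 0.11 over the 10 genes and 0.01 over all genes. Of the 10 values, 9 were above 0, against 51.0% of all genes, but that of SPRY4 was only 0.0021. Because these are bulk libraries, a change in every cell and a change in the share of cells that express a gene cannot be told apart.

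At the medium dose DUSP5 was again the 1 DEG among the 10, against 0.676% of all genes tested. The medium-dose libraries lay above the vehicle without overlap in 5 of the genes (DUSP4, DUSP5, FOSL1, EGR1 and PHLDA1) and below it in 1 (SPRY2), where 14.5% and 14.1% of all genes did so. At the low dose 0 of the 10 were DEGs by edgeR, against 0.111% of all genes. DESeq2 on all libraries or on the 2 groups alone also gave 0. At an unadjusted p under 0.05, 1 gene passed at the low dose, DUSP6, against 7.95% of all genes. The libraries of the low dose lay above the vehicle in DUSP5, DUSP6 and EGR1 and below it in none, against 11.4% and 9.61%. All of these comparisons share the same vehicle libraries.

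Between doses, 1 of the 10 was a DEG for the high against the low dose (DUSP5), against 1.58% of all genes, and 0 for the high against the medium dose, against 0.488%. In that last comparison DUSP5 was the only one with an unadjusted p under 0.05 by edgeR, where 9.85% of all genes passed that limit. Its high-dose libraries, and those of PHLDA1, lay above all medium-dose libraries, and none of the 10 genes lay below them, against 8.32% and 8.19% of all genes. Over the low dose, the high dose lay higher without overlap in DUSP5, FOSL1 and PHLDA1 and lower in DUSP6 and SPRY2, against 9.61% and 10.6%. The dose trend was called for 4 of the 10 (DUSP5, FOSL1 and PHLDA1 upward, SPRY2 downward), against 5.74% of all genes, 2.76% upward and 2.98% downward.

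High-dose replicate 2 moved several of these counts. Without it, 5 of the 10 genes rose at the high dose at an adjusted p under 0.05 (DUSP5, ETV4, FOSL1, EGR1 and PHLDA1) and SPRY2 fell, while 9.83% of all genes then tested rose and 8.89% fell. DUSP5 and EGR1 were DEGs. Against the low dose, EGR1 (log2 difference 0.48, edgeR adjusted p = 0.00205), ETV4 (0.24, 0.018) and SPRY2 (−0.29, 0.0142) passed as well. Relative to the mean of the other 2 high-dose libraries, replicate 2 was lower by 0.87 in EGR1 and by 0.77 in SPRY4 on the log2 scale, and higher by 0.20 in SPRY2. It differed by 0.05 in DUSP5 and 0.06 in DUSP6.

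**Figure D3:**
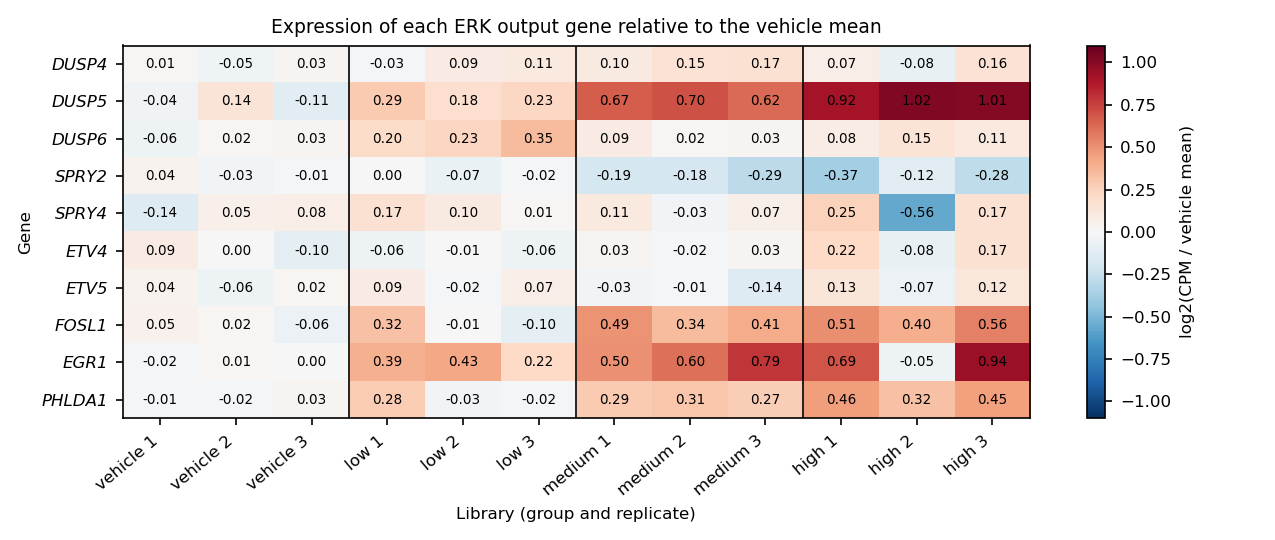
Log2 ratio of each gene's CPM to its vehicle mean (colour and printed value) in each library, with groups separated by vertical lines. DUSP5 is above 0.6 in all medium-dose and high-dose libraries, and the column of high-dose replicate 2 holds −0.56 for SPRY4 and −0.05 for EGR1, where replicates 1 and 3 hold 0.69 and 0.94 for EGR1.

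Per kilobase of exon, the vehicle levels ran from ETV4 (29.0 ± 1.83 CPM per kb, SD, n = 3) to DUSP5 (1.63 ± 0.148). Between them, from high to low, were PHLDA1 (19.7), DUSP6 (15.7), FOSL1 (13.4), EGR1 (10.6), SPRY4 (10.2), ETV5 (7.74), SPRY2 (7.57) and DUSP4 (4.01). The length covers all annotated exons of a gene together, so a gene with exons that its main transcripts lack is set too low. The order is rough for that reason, and reads of DHX8 may be in the ETV4 value. EGR1 and SPRY4 overlapped in their libraries, and so did ETV5 and SPRY2. The other neighbours did not overlap. DUSP5, the gene that rose most, therefore had the lowest level per length of the 10. On the same scale BRAF was at 1.64 ± 0.245 CPM per kb, over 23433 bases of exon against 2535 in DUSP5. Before this division the vehicle mean was 38.4 CPM in BRAF and 4.13 CPM in DUSP5, so their similar values per kb rest on that length.

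The genes of the cascade itself did not pass the test. Of 16 RAS, RAF, MEK, ERK and adaptor genes, 0 rose and 0 fell at the high dose (edgeR, adjusted p under 0.05). Of all genes 2.82% rose and 2.95% fell. The median log2 fold change of the 16 was −0.01. BRAF was at 38.4 ± 5.73 CPM in the vehicle group and 38.6 ± 10.7 CPM at the high dose (log2 fold change 0.01, edgeR adjusted p = 0.98), and replicate 2 of the high dose was at 26.5 CPM. Without high-dose replicate 2, MAPK3 and SHC1 rose and HRAS fell, genes named after their values were seen. In that fit 9.83% of all genes rose and 8.89% fell, so the calls among the 16 were near the share over all genes.

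Of 13 tested brakes of the pathway other than the 10 genes, 1 rose and 1 fell at the high dose (2.82% and 2.95% of all genes). Their median log2 fold change was −0.08. ERRFI1, which encodes an inhibitor of the EGF receptor, was at 64.4, 70.7 and 69.2 CPM in the vehicle libraries, 77.5, 74.8 and 77.5 CPM with 20 µg/mL, 86.7, 83.4 and 85.2 CPM with 100 µg/mL and 113.1, 112.8 and 108.5 CPM with 500 µg/mL. Its groups did not overlap, as in DUSP5. It rose by 0.71 ± 0.06 on the log2 scale at the high dose (edgeR adjusted p = 3.15e-05), a DEG in all 20 alternatives, and by 0.32 at the medium dose (0.0258). SPRY1, named after its values were seen, fell by 0.39 ± 0.08 (edgeR adjusted p = 0.0108), from 34.1, 29.6 and 28.2 CPM to 23.4, 22.7 and 23.7 CPM. It was lost in both analyses that used the 2 groups alone (adjusted p = 0.0513 by DESeq2 and 0.171 by edgeR). Of the 3 phosphatases DUSP8, DUSP10 and DUSP16, which act on JNK and p38, 0 were called at the high dose. Without high-dose replicate 2, SPRED3 and DUSP8, named after their values were seen, rose as well, where 9.83% of all genes did. SPRED3 was low, at 0.425 to 1.98 CPM and 6 to 56 counts over the libraries.

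Of 15 tested AP-1 subunits and other early response factors, 7 rose and 0 fell at the high dose (2.82% and 2.95% of all genes), around a median log2 fold change of 0.27 (0.01 over all genes). The DEGs among them were ATF3, IER3 and FOSB. ATF3, a stress-induced factor of the ATF family, was at 1.82, 2.49 and 2.81 CPM in the vehicle libraries and at 6.21, 7.15 and 6.36 CPM at the high dose, while the low-dose and medium-dose libraries lay between 2.64 and 3.30 CPM. It rose by 1.45 ± 0.15 at the high dose (edgeR adjusted p = 0.000106) and was a DEG in all 20 alternatives. In ATF3 the medium-dose libraries still overlapped the vehicle, whereas in DUSP5 they lay above it.

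IER3, which encodes an early response protein that is a substrate of ERK, was at 78.2, 59.8 and 56.9 CPM in the vehicle libraries, 94.8, 93.8 and 93.9 CPM with 100 µg/mL and 103.1, 110.0 and 102.9 CPM with 500 µg/mL. Both doses lay above the vehicle, and the gene rose by 0.54 (edgeR adjusted p = 0.0272) and 0.70 (0.00156). At the high dose it was a DEG in 19 of 20 alternatives. FOSB, an AP-1 subunit, was at 3.91, 3.27 and 3.03 CPM in the vehicle libraries and at 6.53, 4.46 and 6.49 CPM at the high dose, where it rose by 0.81 ± 0.17 (edgeR adjusted p = 0.0177). This call failed in 5 of 20 alternatives, among them without vehicle replicate 2 (0.0808), vehicle replicate 3 (0.0741), high-dose replicate 1 (0.0631) or high-dose replicate 3 (0.0759).

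The other early response genes with an adjusted p under 0.05, named after their values were seen, were FOS (log2 fold change 0.52), JUN (0.35), MAFF (0.31) and KLF10 (0.27), all under 1.5-fold. JUN kept its call in 19 of 20 alternatives and FOS in 15, where FOS lost it without vehicle replicate 2 (edgeR adjusted p = 0.0873), vehicle replicate 3 (0.0907), high-dose replicate 1 (0.0755) or high-dose replicate 3 (0.0918). KLF10 kept it in 6 and MAFF in 5, and leaving out most single libraries ended both calls, with an edgeR adjusted p of up to 0.125 and 0.135. Without high-dose replicate 2, 10 of the 15 rose, in a fit where 9.83% of all genes did, against 2.82% with all libraries.

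Of 14 tested genes from a further list of ERK output, 3 rose at the high dose and 0 fell (2.82% and 2.95% of all genes), around a median log2 fold change of 0.13 (0.01 over all genes). LIF, a cytokine of the interleukin 6 family, was the 1 DEG among them. It was at 25.3, 25.6 and 23.7 CPM in the vehicle libraries, at 30.0, 28.7 and 28.5 CPM with 20 µg/mL, at 34.8, 33.0 and 34.3 CPM with 100 µg/mL and at 44.9, 33.3 and 42.4 CPM with 500 µg/mL. Every dose lay above the vehicle, and high-dose replicate 2 was at the level of the medium dose. The log2 fold change at the high dose was 0.70 ± 0.10 (edgeR adjusted p = 0.00117), and LIF was a DEG in 19 of 20 alternatives. EMP1 (0.40) and PLAUR (0.41), named after their values were seen, also rose. PLAUR lost its call in 6 of 20 alternatives, among them without vehicle replicate 1 (edgeR adjusted p = 0.0695), 2 (0.0897) or 3 (0.098). In the fit without high-dose replicate 2, 5 of the 14 rose, against 9.83% of all genes.

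The 14 ETS factors, SRF partners and related factors gave 0 calls at the high dose, and 13 of them had a log2 fold change under 0, with a median of −0.07. This direction rested on high-dose replicate 2, without which 10 of the 14 were above 0 and the median was 0.10. The count of calls was then 1, CIC, named after its values were seen, which rose as 9.83% of all genes did in that fit.

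**Figure D4:**
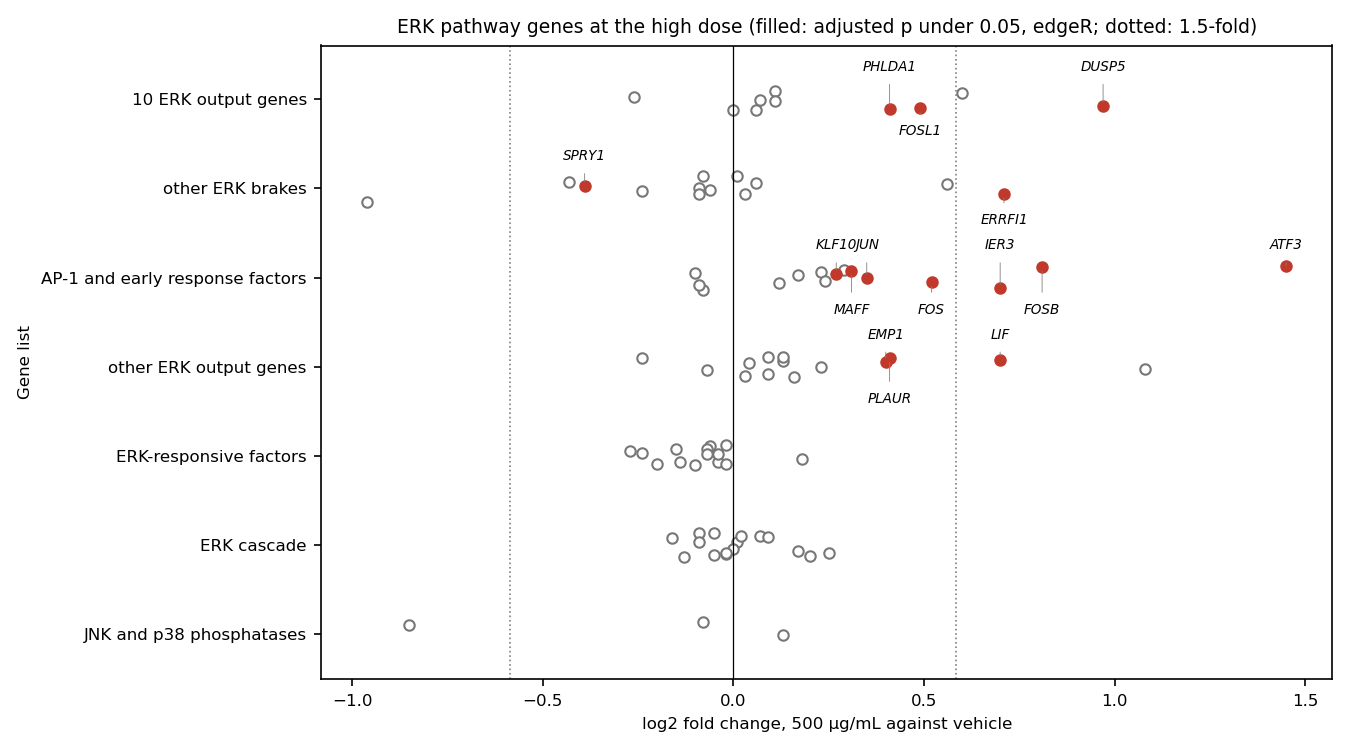
Log2 fold change at 500 µg/mL against vehicle (horizontal axis) for the 10 genes and 6 lists of related genes, 1 point per gene. Filled points have an edgeR adjusted p under 0.05, dotted lines mark 1.5-fold and the height within a list has no meaning. Filled points lie mostly to the right, in the 10 genes, the early response factors (7 of 15) and the other output genes (3 of 14), and none is in the ERK cascade.

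**Figure D5:**
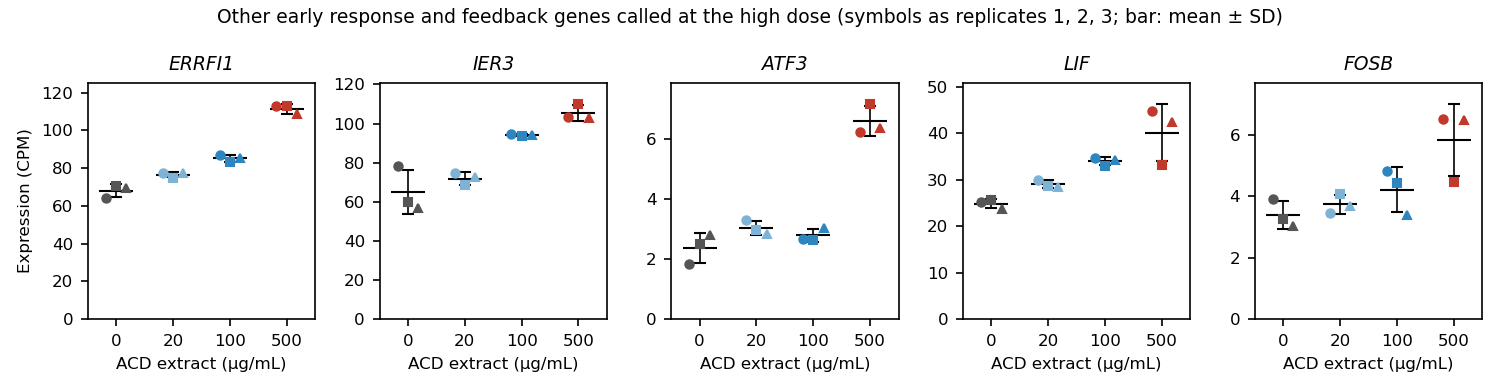
Expression in CPM (vertical axes, from 0) of the 5 other listed genes that were DEGs at the high dose, against the concentration of ACD in µg/mL. Symbols are replicates and bars give the mean ± SD of 3 libraries. ERRFI1 climbs at every dose from 68.1 to 111.4 CPM, whereas ATF3 stays between 2.37 and 3.03 CPM in its group means up to 100 µg/mL and is at 6.58 CPM at 500 µg/mL.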

How the data were processed

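RNA libraries from HT29 cells were made with a directional kit and sequenced as paired reads. Per the submitters' processing notes, the tools were FastQC 0.11.9, Trim Galore 0.6.5, STAR 2.7.3a and RSEM 1.3.3. The authors deposited expected counts of RSEM per gene, not normalized, which were rounded to whole numbers. Of the 60675 gene IDs, 56558 have an entry in GENCODE release 44, the source of symbols, positions and exon lengths (GRCh38), and all 111 listed genes were matched.

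All 12 libraries were fitted together in edgeR 4.0.16 under R 4.3.3 (filterByExpr, TMM, robust quasi-likelihood F-test), and adjusted p-values are Benjamini-Hochberg values over all 15374 genes tested. The common dispersion was 0.0126. A DEG needed an adjusted p of less than 0.05 together with a change beyond 1.5-fold. A linear term in the dose rank gave the trend. Standard errors and 95% intervals follow from the p and its degrees of freedom. The tests were first tried on simulated counts. Alternatives were DESeq2 1.42.0, edgeR on 2 groups alone, other size factors, filters and library sizes, a replicate block, no minimum fold change and each library left out. Tables and figures used Python 3.11.15 with pandas 2.3.3 and matplotlib 3.10.9.

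The 10 genes, the other lists and the tests were chosen with earlier results of these data known. The genes named are the 10, BRAF, the DEGs of the other lists (at most 6 per list) and the 5 genes most like DUSP6. Others, apart from cell type markers, pseudogenes and overlapping genes, are marked as named after their values were seen. One further gene that the naming rule gave, which is none of the 10, is not reported here.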

Additional observations from a re-analysis of the deposited data

How the results depend on the processing

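The count of DEGs at the high dose was 451 of 15374 genes, 172 with edgeR on the 2 groups alone, 887 with no minimum fold change and 310 to 768 when 1 library was left out, lowest without vehicle replicate 2 and highest without high-dose replicate 2. Of the 10 genes, 1 was a DEG at the high dose, 2 by DESeq2 on all libraries, 3 with no minimum fold change and 1 to 2 with 1 library left out, where EGR1 was the addition. At the medium dose it was 1, but 2 by DESeq2 or edgeR on the 2 groups alone and 1 to 2 with 1 library left out, again with EGR1 added. The counts for the low dose (0), high against medium (0) and high against low dose (1) did not change in any alternative, and the trend count of 4 ranged from 3 to 5 with 1 library left out. In all, 135 alternative values of these counts equalled the reported one or stayed within 1.5 times of it, and 9 did not.

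For single genes at the high dose, 183 values kept their direction and side of the threshold, 6 lost the call, 5 gained it and 6 turned direction. All 6 reversals were in SPRY4, whose log2 fold change near 0 became −5e-04 with edgeR on the 2 groups alone, −0.0077 with at least 10 counts in every library, −0.022 with the replicate block and −0.14 to 0.21 with 1 library left out, among them −0.0609 when vehicle replicate 1 was left out, −0.14 for high-dose replicate 1 and −0.0901 for high-dose replicate 3.

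Whether the replicate numbers pair the libraries could not be decided, with only 3 libraries per group and high-dose replicate 2 apart from its group. Same-numbered libraries of different groups had deviations that correlated between −0.495 and 0.372, with 5 of 18 pairs over 0.1, and 4 of 12 libraries correlated best with their own number. With the replicate number as a block, 379 genes were DEGs at the high dose and DUSP5 was still the 1 among the 10. The trend count of the 10 was then 3, without SPRY2, and no other call of the 10 genes at the high dose changed.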
